A study of Mus musculus with 6 samples.

Results

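The genes described here, 10 in all, mark or regulate blood stem and progenitor cells: the surface markers Kit, Cd34, Prom1 and Cd48, and the transcriptional regulators Myb, Sox4, Lmo2, Erg, Hoxa9 and Meis1. They were chosen by name out of 18193 genes named on the arrays, and every probe set that the platform annotation gives to 1 of these symbols alone was read, which made 24 probe sets. The assay was an Affymetrix array read at the 3' end of transcripts, and the cells were myeloid cells sorted from femur and tibia marrow of Hdc-GFP mice on a C57BL/6 background, in which green fluorescent protein reports Hdc, the gene of the histamine-making enzyme. Cells of both groups were GFP-positive or GFP-high and carried the myeloid integrin CD11b. They differed in the antigen Gr1, which was low in the Gr1lo group (3 arrays) and high in the Gr1hi group (3 arrays). All samples are labelled female, and the labels give no treatment and no age. They do not say whether replicates came from separate animals, so the p-values cover the spread among these samples alone, which may be technical, and the number of arrays limits the precision.

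A blood stem cell gives rise to progenitors of narrowing potential, and a neutrophil then forms through dividing myeloblasts, promyelocytes and myelocytes before division stops. KIT is the receptor of stem cell factor, CD34 and prominin-1 (Prom1) are surface glycoproteins of primitive cells, and CD48 is a protein of the SLAM family that mouse stem cells lack and many of their progeny carry. MYB keeps progenitors proliferating, LMO2 bridges DNA-binding proteins in a stem cell complex, ERG is an ETS-family factor of stem cells, SOX4 is an HMG-box factor of early progenitors, and HOXA9 acts on its targets with its partner MEIS1.

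The arrays carried a mark that goes against the sex label. Eif2s3y, a Y-linked gene, read 9.02 to 9.87 on the Gr1lo arrays and 9.91 to 10.66 on the Gr1hi arrays, while Xist, which coats the silenced X in female cells, was high only on replicate 3 of Gr1lo (10.95) and of Gr1hi (10.14) and read 1.97 to 2.43 elsewhere. The description of Gr1lo replicate 3 also gives the reporter with a hyphen that may stand for a minus sign. The title of Gr1hi replicate 2 writes HDC-GFP+ with a hyphen too. Hdc itself read 10.99, 10.85 and 10.75 on Gr1lo replicates 1 to 3, and 12.49, 12.52 and 11.99 on Gr1hi replicates 1 to 3. Whether Gr1lo replicate 3 was sorted as GFP-negative was not tested. Without both replicate 3 arrays 5 members were called higher in Gr1lo and 0 lower, Erg being the call that was lost, and values that moved are given beside each gene. In that setting 57.7% of all called genes were higher in Gr1lo. The CD11b gene Itgam lay between 11.16 and 11.49 in Gr1lo and between 12.05 and 12.25 in Gr1hi, so the sorted myeloid integrin was transcribed in every sample. Arrays correlated at 0.990 to 0.996 within Gr1lo, at 0.994 to 0.995 within Gr1hi and at 0.873 to 0.914 between the groups.

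Gr1lo cells held more transcript than Gr1hi cells of 6 of the 10 genes: the surface markers Kit, Prom1 and Cd48 and the regulators Myb, Lmo2 and Erg. Differences ran from 1.40-fold for Erg to 4.53-fold for Cd48. Cd34 lay within the level of absent transcripts on every array and Hoxa9 on 5 of 6. Meis1 lay just above it by its brightest probe set alone, and Sox4 was low and varied between replicates. Values here and below are log2 probe set values, and a difference is Gr1lo minus Gr1hi. The absent level was read from 3 control probe sets of a bacterial gene, whose highest value was 2.77. To be tested, a gene had to exceed the 40th percentile of the array on 3 or more of the 6 arrays, and 9 of the 10 members, all but Cd34, did so.

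By limma, with an adjusted p under 0.05 over all tested genes as the threshold, 6 members were higher in Gr1lo and 0 lower, and 0 had an unadjusted p under 0.05 in the lower direction. Among the 12732 tested genes 56.4% were called, 31.8% higher in Gr1lo and 24.6% lower. The groups of arrays did not overlap in 6 members that were higher and in 1, Meis1, that was lower, against 34.8% and 30.7% of all tested genes (65.5% in either direction). The median difference of all 10 members without the filter was 0.67, where that of all genes was -0.060. The scale of the arrays bears on the smaller differences. Over all tested genes the median was -0.028 as deposited, -0.70 under median centring (each array set to the median of its kept genes) and 0.23 under control centring (each array set to its hybridization controls). The share of called genes that were higher in Gr1lo was 56.4%, 21.7% and 72.3% on these 3 scales. Kit, Prom1, Cd48 and Myb were called higher in Gr1lo on each of them, and Lmo2 and Erg as deposited and under control centring.

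**Figure D1:**
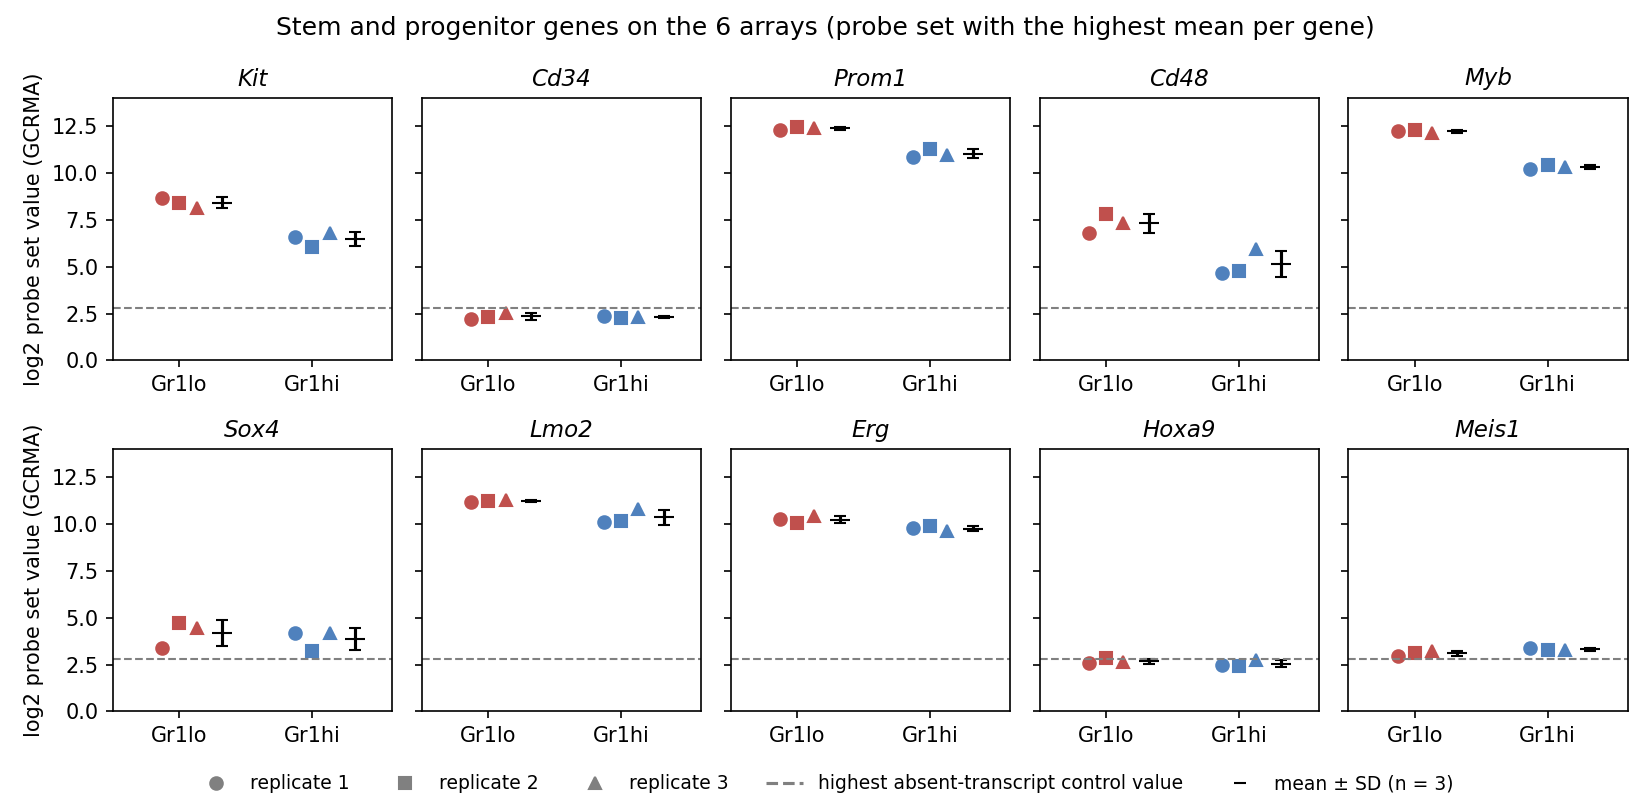
Log2 probe set value (vertical axis) of the 10 genes on each array, with Gr1lo on the left and Gr1hi on the right of each panel; symbols are replicates, black marks the mean ± SD (n = 3) and the dashed line the highest absent-transcript control value, 2.77. Kit, Prom1, Cd48, Myb, Lmo2 and Erg lie higher in Gr1lo with no overlap, whereas Cd34 lies below the dashed line on every array and Hoxa9 above it on 1 of 6.

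The promoters of members that moved together are shown as the stretch of 250 bases before the annotated start, 5' to 3' on the gene's strand, from RefSeq on build GRCm38.p6, which held 13 such stretches for 9 of the members and none for Lmo2. Capitals mark short cores searched on both strands for factor families of stem and progenitor cells, namely AGGAAG for ETS factors, TGTGGT for RUNX factors, AGATAA for GATA factors and TGACAG for MEIS factors. None of the cores contains another. The stretches lie at chr1:171681742-171681991 (Cd48, plus strand), chr5:75574737-75574986 (Kit, plus strand), chr10:21160985-21161234 (Myb, minus strand) and chr5:44101737-44101986 (Prom1, minus strand), and the 4 genes are those with the largest differences.
Cd48: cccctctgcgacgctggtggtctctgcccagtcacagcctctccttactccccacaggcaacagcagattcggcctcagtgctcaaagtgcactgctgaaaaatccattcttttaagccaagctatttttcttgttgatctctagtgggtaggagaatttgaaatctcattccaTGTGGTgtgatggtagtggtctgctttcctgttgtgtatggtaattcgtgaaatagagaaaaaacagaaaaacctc
Kit: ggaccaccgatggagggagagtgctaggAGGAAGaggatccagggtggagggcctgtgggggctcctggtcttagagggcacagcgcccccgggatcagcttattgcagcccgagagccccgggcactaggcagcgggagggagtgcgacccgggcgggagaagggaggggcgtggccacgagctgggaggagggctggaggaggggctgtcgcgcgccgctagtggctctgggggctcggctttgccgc
Myb: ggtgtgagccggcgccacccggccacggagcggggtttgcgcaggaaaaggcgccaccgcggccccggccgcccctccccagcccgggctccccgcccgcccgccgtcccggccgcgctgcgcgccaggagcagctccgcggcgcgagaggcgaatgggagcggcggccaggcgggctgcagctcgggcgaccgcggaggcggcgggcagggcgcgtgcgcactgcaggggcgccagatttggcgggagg
Prom1: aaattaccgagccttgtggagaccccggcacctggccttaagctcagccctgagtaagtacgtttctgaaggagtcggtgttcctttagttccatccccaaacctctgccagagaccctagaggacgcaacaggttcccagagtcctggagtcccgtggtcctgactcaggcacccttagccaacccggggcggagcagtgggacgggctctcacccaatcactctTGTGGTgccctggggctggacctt
Base composition set them apart: Myb's stretch had 81.2% G and C with 40 CpG dinucleotides and Kit's had 70.8% with 17, whereas Cd48's had 46.0% with 4 and Prom1's 59.2% with 9, against medians of 52.4% and 6 over all 32841 stretches. The ETS core stood in 7 of 13 member stretches (53.8%), those of Kit, Cd34, Prom1, Sox4, Erg and Hoxa9, and in 29.5% of all stretches. Kit's 2 stretches overlap and both count, and Prom1's core lies in its other stretch, not the one shown. The RUNX core stood in 3 (23.1%), of Cd48, Prom1 and Meis1, against 4613 of all 32841. The GATA and MEIS cores each stood in 1 (7.69%), of Erg, against 9.99% and 15.9%. The MYB core AACNG, too common to mark, stood in 9 (69.2%) against 74.2%. Genes higher in Gr1lo and genes at the absent level were both among those with an ETS core, and these arrays measure the 3' end of transcripts and nothing at the promoters.

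Kit, whose product binds stem cell factor, read 8.69, 8.42 and 8.12 on the 3 Gr1lo arrays, against 6.61, 6.03 and 6.77 on the 3 Gr1hi arrays. Every Gr1lo array stood above every Gr1hi array, with a gap of 1.34 between the nearest. The difference was 1.94 (SE 0.23, 95% interval 1.41 to 2.46), a 3.83-fold higher level in Gr1lo (limma adjusted p = 7.41e-05). The other Kit probe set read 2.49 to 2.73 in Gr1lo and 2.05 to 2.45 in Gr1hi, no higher than the absent controls on any array, so the result for Kit rests on 1 of its 2 probe sets. Why they differ was not tested. Mast cells carry KIT too, and the mast cell and basophil list averaged 3.32 to 3.96 over its 8 genes on the Gr1lo arrays and 2.93 to 4.11 on the Gr1hi arrays. In that list 1 of 6 tested genes, the Fc receptor subunit gene Ms4a2, was higher in Gr1lo (difference 1.64, adjusted p = 0.00206), 0 were lower, and the chymase gene Cma1 lay within the absent level on every array. The second Ms4a2 probe set read 1.98 to 2.34, within the absent level. Mcpt8, the brightest gene of the list, read 5.06, 5.47 and 7.44 in Gr1lo and 5.13, 3.13 and 7.74 in Gr1hi. Cpa3 read 2.67, 2.42 and 3.78 in Gr1lo and 3.44, 3.02 and 5.02 in Gr1hi. Neither was called, at differences of 0.66 and -0.87, and both were highest on replicate 3 of each group. The part of mast cells and basophils in the Kit difference was not tested.

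Cd34, which encodes a sialomucin of stem cells and early progenitors, read 2.20, 2.31 and 2.53 in Gr1lo and 2.35, 2.25 and 2.33 in Gr1hi. Its single probe set was within the absent level on all 6 arrays and was not tested. Prom1, which encodes the pentaspan protein prominin-1 (CD133), behaved otherwise. It read 12.29, 12.44 and 12.39 in Gr1lo, against 10.84, 11.30 and 10.98 in Gr1hi, with 0.99 between the nearest arrays of the groups. The difference was 1.34 (SE 0.12, interval 1.07 to 1.603), 2.52-fold (limma adjusted p = 1.09e-05). Prom1 was thus far above the absent level in Gr1hi cells too.

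Cd48, the SLAM-family ligand that is used to part stem cells from their progeny, gave the largest difference among the members, and its replicates varied widely. It read 6.78, 7.82 and 7.34 in Gr1lo, against 4.69, 4.77 and 5.93 in Gr1hi. Gr1hi replicate 3 stood above the other Gr1hi arrays, yet below every Gr1lo array by at least 0.84. The difference was 2.18 (SE 0.37, interval 1.34 to 3.02), 4.53-fold (limma adjusted p = 0.000723), and it was 2.57 without both replicate 3 arrays. Lymphocytes also carry CD48. The T and NK cell list averaged 2.55 to 2.73 in Gr1lo and 3.42 to 3.50 in Gr1hi, with 0 of 5 tested genes higher in Gr1lo (0 also at an unadjusted p under 0.05) and 4 lower, and Cd3e, Cd3g and Ncr1 were within the absent level on every array. Most of the gap between these averages came from Cd3d, a T cell receptor complex gene, which averaged 4.32 in Gr1lo and 8.49 in Gr1hi (difference -4.17). The other 3 lower calls, Cd6, Eomes and Prf1, were within the absent level on all Gr1lo arrays. The B lineage list averaged 3.15 to 3.17 in Gr1lo and 3.25 to 3.52 in Gr1hi. Of 7 tested genes 1, the receptor chain gene Cd79b, was higher by 0.74 and 3 were lower. The lower calls were Ms4a1 (difference -0.96), Ebf1 (-0.59) and Cd79a, which was within the absent level on all Gr1lo arrays. The part of lymphocytes in the Cd48 difference was not tested.

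Myb, the regulator of progenitor proliferation, was the most reproducible member. Its brightest probe set read 12.23, 12.30 and 12.15 in Gr1lo, against 10.19, 10.43 and 10.31 in Gr1hi. The lowest Gr1lo array exceeded the highest Gr1hi array by 1.72, the widest gap among the members. The difference was 1.91 (SE 0.092, interval 1.71 to 2.12), 3.77-fold (limma adjusted p = 3.30e-07). Both further Myb probe sets, fitted on their own among all kept probe sets, differed by 2.20 (10.12 ± 0.34 in Gr1lo and 7.93 ± 0.036 in Gr1hi) and by 2.21 (11.92 ± 0.25 in Gr1lo and 9.71 ± 0.043 in Gr1hi; SD, n = 3), with adjusted p-values of 4.82e-06 and 7.90e-07. All 3 Myb probe sets therefore gave the same direction and nearly the same size.

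Lmo2, a bridging protein that does not itself bind DNA, read 11.15, 11.22 and 11.29 in Gr1lo, against 10.10, 10.17 and 10.81 in Gr1hi. The Gr1lo arrays lay close together and Gr1hi replicate 3 lay nearest to them, 0.35 below the lowest. The difference was 0.86 (SE 0.17, interval 0.47 to 1.25), 1.82-fold (limma adjusted p = 0.00189), and 1.05 without both replicate 3 arrays. Its call was lost under median centring (0.19, adjusted p = 0.307) and in a test against a 1.5-fold change (adjusted p = 0.202). Erg, an ETS-family factor of stem cells and endothelium, read 10.26, 10.04 and 10.40 in Gr1lo, against 9.76, 9.88 and 9.62 in Gr1hi. The groups were parted by 0.16. The difference was 0.48 (SE 0.13, interval 0.20 to 0.77), 1.40-fold (limma adjusted p = 0.00904).

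The Erg call is the least settled of the 6. Without both replicate 3 arrays the difference was 0.33 (adjusted p = 0.106), and under median centring it was -0.19 (adjusted p = 0.251). In a test against a 1.5-fold change its adjusted p was 1.0. It also rests on 1 of 2 probe sets. The other read 2.99, 3.00 and 3.20 in Gr1lo and 2.63, 3.02 and 2.65 in Gr1hi, near the absent level, with overlapping groups (difference 0.30, adjusted p = 0.079). Endothelial markers, which could accompany Erg and Cd34, averaged 2.37 to 2.44 in Gr1lo and 2.50 to 2.54 in Gr1hi over 8 genes. Cldn5, Emcn, Kdr and Tek were within the absent level on every array, and 0 of 4 tested endothelial genes were higher in Gr1lo, by an unadjusted p as well. Cdh5, called lower, averaged 2.44 in Gr1lo, within the absent level on all 3 arrays, and 2.92 in Gr1hi, and it entered the test through the Gr1hi arrays alone.

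**Figure D2:**
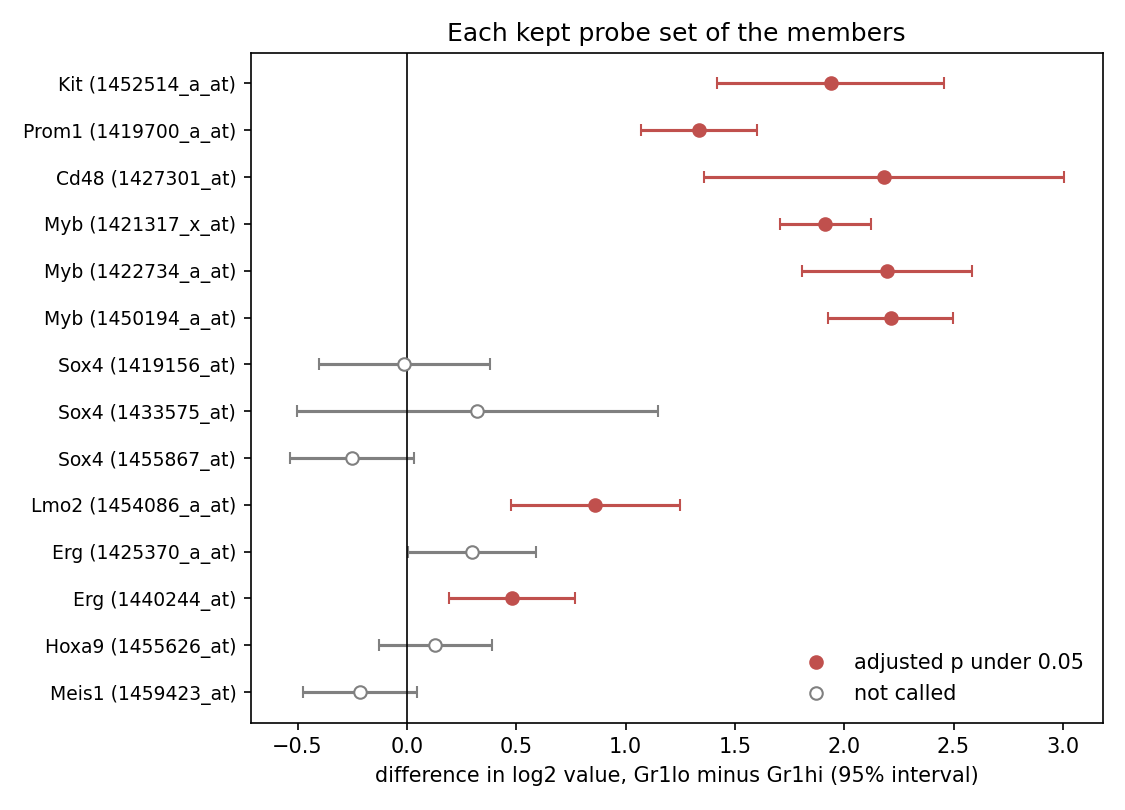
Difference in log2 value, Gr1lo minus Gr1hi (horizontal axis), with its 95% interval for each of the 14 member probe sets that passed the filter, fitted among all kept probe sets. The 8 filled points, of Kit, Prom1, Cd48, Myb, Lmo2 and 1 of 2 Erg probe sets, passed the test and all lie above 0; the open points of Sox4, Hoxa9, Meis1 and the other Erg probe set did not.

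Sox4 had 8 probe sets, of which 3 passed the filter and none was called. The highest read 3.40, 4.73 and 4.44 in Gr1lo, against 4.19, 3.21 and 4.20 in Gr1hi, so 1 array in each group stood apart and the groups overlapped. The difference was 0.32 (interval -0.51 to 1.16, limma adjusted p = 0.482), an interval that includes a 2-fold difference in favour of Gr1lo. The other kept Sox4 probe sets differed by -0.011 and -0.25, neither past the threshold.

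Hoxa9, the homeobox factor of primitive myeloid progenitors, read 2.57, 2.83 and 2.65 in Gr1lo and 2.49, 2.42 and 2.76 in Gr1hi with its brighter probe set, above the absent controls on 1 array of 6. The groups overlapped, and the difference of 0.13 (interval -0.12 to 0.39) did not pass the test (limma adjusted p = 0.352). Its partner gene Meis1 read 2.97, 3.11 and 3.20 in Gr1lo, against 3.39, 3.29 and 3.25 in Gr1hi, with its brightest of 3 probe sets. The groups did not overlap, but the difference of -0.22 (interval -0.47 to 0.042) did not pass either (adjusted p = 0.137). Of the other Meis1 probe sets, 1 read 1.70 to 2.19, within the absent level on every array. The other read 2.15 to 2.83, above the absent controls on 1 array. Under median centring both genes were called lower in Gr1lo (Hoxa9 -0.54, Meis1 -0.89), and under control centring Hoxa9 was called higher (0.39). Of the 24 member probe sets, 9 had no array above the absent controls and 11 had all 6 above them.

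**Figure D3:**
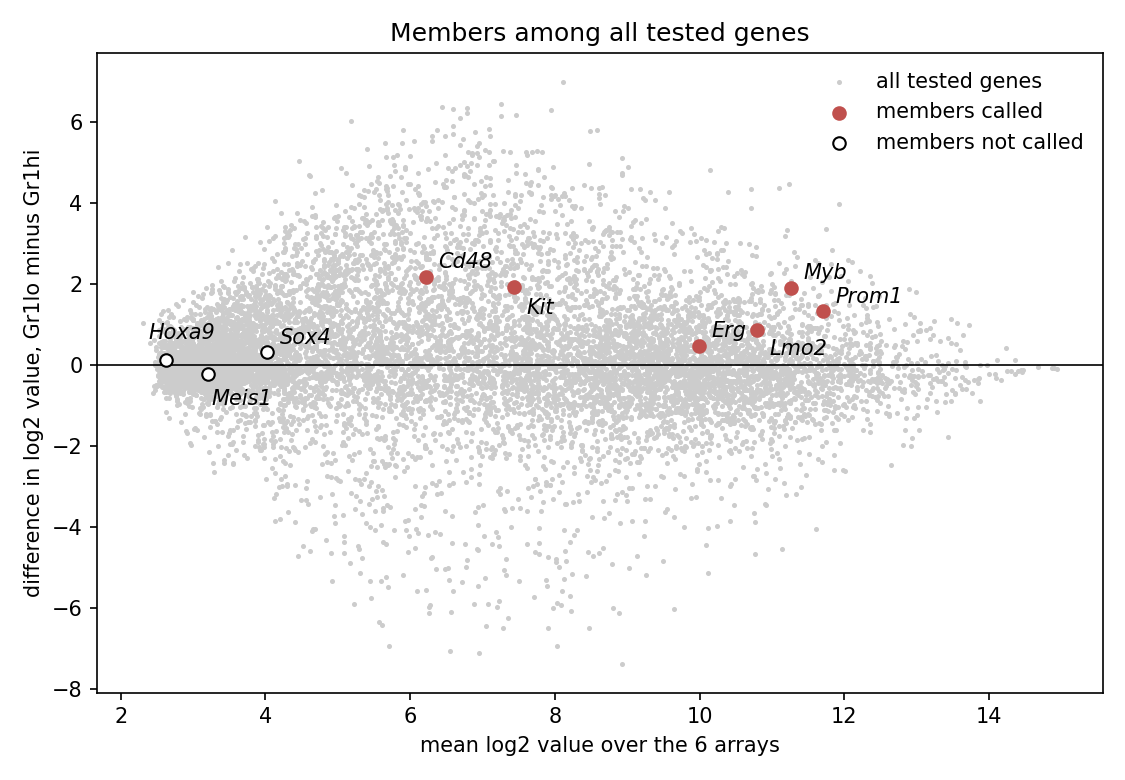
Difference in log2 value, Gr1lo minus Gr1hi (vertical axis), against the mean log2 value over the 6 arrays (horizontal axis) for all 12732 tested genes (grey) and the 9 tested members. The 6 called members lie above 0 at mid to high signal, and Sox4, Hoxa9 and Meis1 lie near 0 at the low end.

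Promyelocyte and proliferation markers were higher in Gr1lo, as the called members were, and mature neutrophil markers were lower. Of the committed promyelocyte list, with the granule enzyme genes Mpo, Prtn3 and Ctsg, 9 of 9 tested genes were higher in Gr1lo, by 3.05 to 6.99, and the list averaged 12.02 to 12.56 on Gr1lo arrays and 6.96 to 7.80 on Gr1hi arrays. Of the proliferation list, with Mki67, Top2a and Pcna, 9 of 9 were higher in Gr1lo, by 2.61 to 6.24, with averages of 11.94 to 12.16 in Gr1lo and 7.997 to 8.28 in Gr1hi. Of the mature neutrophil list, with the receptor gene Fpr2 and the protease genes Mmp8 and Mmp9, 9 of 9 were lower in Gr1lo, and the list averaged 8.78 to 9.61 in Gr1lo and 12.22 to 12.25 in Gr1hi. The largest difference of a member, 2.18 for Cd48, was below the smallest of either list that was higher in Gr1lo. In sorted bulk samples fewer cells that hold a transcript and less of it per cell cannot be told apart, and the part of these cell stages in the members' differences was not tested.

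Markers of further cell types showed no common direction. The erythroid and megakaryocyte list averaged 2.97 to 3.10 in Gr1lo and 2.79 to 3.04 in Gr1hi, with 1 of 7 tested genes, the erythroid nuclear protein gene Hemgn, higher (difference 1.96) and 1 lower. The monocyte and dendritic cell list averaged 4.45 to 5.32 in Gr1lo and 4.93 to 5.68 in Gr1hi. The coagulation factor gene F13a1 was higher by 0.98 and the growth factor receptor gene Csf1r lower (difference -4.01) in Gr1lo. The F13a1 groups overlapped (9.37 to 10.43 in Gr1lo and 8.43 to 9.46 in Gr1hi). F13a1, Ly86, Irf8 and Ccr2 were each highest on replicate 3 of each group, and Ccr2 read 6.07 and 7.29 there. The eosinophil list averaged 3.37 to 3.53 in Gr1lo and 3.36 to 3.72 in Gr1hi, and the stromal list 2.42 to 2.54 in Gr1lo and 2.53 to 2.74 in Gr1hi. In the eosinophil list Siglecf read 8.06 to 8.69 in Gr1lo and 8.09 to 8.24 in Gr1hi, while Epx, Prg3, Il5ra and Ccr3 were within the absent level on every array. None of the tested eosinophil (2) or stromal (3) genes was higher in Gr1lo, by limma or at an unadjusted p under 0.05. The stromal gene Col1a1 was called lower, and it was within the absent level on all Gr1lo arrays.

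Partners of LMO2 and ERG in stem cell complexes were higher in Gr1lo or not called, each by its brightest probe set. Of 14 listed genes 13 were tested, 7 were higher in Gr1lo and 0 lower (0 at an unadjusted p under 0.05). Over all tested genes 31.8% were called higher and 24.6% lower. The median difference was 0.41 against -0.028 for all tested genes. Tcf12, an E protein that pairs with LMO2-bound factors, averaged 9.19 ± 0.20 in Gr1lo and 5.89 ± 0.35 in Gr1hi (difference 3.30, adjusted p = 1.38e-06). Lyl1, a relative of TAL1 that binds LMO2, differed by 1.02 (10.07 ± 0.045 in Gr1lo and 9.05 ± 0.17 in Gr1hi), and Cbfb, the partner subunit of RUNX factors, by 0.79. Tcf3, Runx1, Cbfa2t3 and Fli1 made up the 7, with differences of 0.92, 0.41, 0.49 and 0.46. Tal1 (4.45 ± 0.13 in Gr1lo and 4.27 ± 0.24 in Gr1hi) and Gata2 (3.15 ± 0.23 in Gr1lo and 3.34 ± 0.054 in Gr1hi), core stem cell factors, were not called. Gata1 was within the absent level on every array. Fitted on its own, another Gata2 probe set was called lower (difference -0.47, limma adjusted p = 0.0389). Among further Cbfa2t3 probe sets 1 was called lower (-0.23, near the absent level) and 1 higher (0.79). Under median centring 2 genes of the list were higher and 6 lower.

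HOX, MEIS and PBX genes were called in both directions. Of 10 tested genes among 15 listed 3 were higher in Gr1lo and 4 lower, with a median of -0.22. All tested genes were also called in both directions, 31.8% higher and 24.6% lower. Pbx3, which encodes a partner of HOXA9, averaged 7.32 ± 0.35 in Gr1lo and 4.25 ± 0.51 in Gr1hi (difference 3.07, adjusted p = 1.63e-05). The chromatin tether gene Psip1 (1.29) and its partner gene Men1 (0.78), both of which serve HOX gene activation, were higher too. The Men1 call rests on its brightest probe set. Another was within the absent level, and a further one differed by -0.25 and was not called. Pknox1, a relative of MEIS1, averaged 8.06 ± 0.15 in Gr1lo and 9.84 ± 0.19 in Gr1hi (difference -1.79), and Pbx2 differed by -1.06. The remaining lower calls, Hoxa7 (2.87 in Gr1lo and 3.14 in Gr1hi) and Meis3 (3.24 in Gr1lo and 3.56 in Gr1hi), were of low signal. Hoxa3, Hoxa5 and Hoxa10 were within the absent level on every array. The count of 4 lower became 2 without any 1 of the Gr1lo arrays or without Gr1hi replicate 1, 2 with the replicate number as a block and 7 under median centring.

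Genes that carry or restrain the KIT signal went both ways. Of 14 tested genes 2 were higher in Gr1lo and 5 lower, with a median of -0.11, beside 31.8% higher and 24.6% lower over all tested genes. Gab2, an adaptor downstream of KIT, averaged 7.89 ± 0.18 in Gr1lo and 9.96 ± 0.34 in Gr1hi (difference -2.06, adjusted p = 1.18e-05). Sh2b3, which encodes the inhibitory adaptor LNK, differed by -1.26 and the adaptor gene Grb2 by -0.69. Pik3cd was not called by its brightest probe set (difference 0.017). Its other kept probe sets, fitted on their own, differed by -1.27, -1.75 and -1.66 and were called lower, which the counts above leave out. Ptpn11, which encodes the phosphatase SHP-2, was higher by 0.55 and the inhibitor gene Spred1 by 0.63. The other Ptpn11 probe sets overlapped between the groups (differences 0.053 and -0.021). Spred1 was of low signal, averaging 3.50 in Gr1lo and 2.86 in Gr1hi, the latter close to the absent level. Kitl, the gene of stem cell factor itself, averaged 2.86 ± 0.14 in Gr1lo and 2.88 ± 0.12 in Gr1hi, close to the absent level. Without Gr1hi replicate 3 the 2 higher became 1, and under median centring 0 were higher and 11 lower.

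Other genes of stem and multipotent cells were in part not above the absent level. Of 20 listed genes 7 were within the absent level on every array: Flt3, Slamf1, Cd27, Tek, Mecom, Angpt1 and Adgrg1. Of the 11 tested 3 were higher in Gr1lo and 4 lower, with a median of -0.16, beside 31.8% higher and 24.6% lower over all tested genes. Bmi1, a Polycomb gene needed for self-renewal, averaged 8.10 ± 0.36 in Gr1lo and 4.66 ± 0.43 in Gr1hi (difference 3.44, adjusted p = 4.81e-06), a larger difference than that of any member. Hlf differed by 0.86. The transglutaminase gene Tgm2 averaged 4.76 ± 0.56 in Gr1lo and 9.83 ± 0.099 in Gr1hi (difference -5.07). Egr1, an immediate early gene, averaged 2.01 in Gr1lo, within the absent level on all 3 arrays, and 3.33 in Gr1hi. Mllt3 averaged 3.01 in Gr1lo and 2.53 in Gr1hi, where all 3 arrays were within that level. Ikzf2 averaged 2.31 in Gr1lo, within that level on all 3 arrays, and 2.79 in Gr1hi. All 3 genes were called, Egr1 and Ikzf2 lower and Mllt3 higher in Gr1lo, and the counts above include them. But each passed the filter through the group where it is high, and no size of difference is given. Under median centring 1 was higher and 8 lower.

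Of the 10 tested genes in the list of MYB partners and reported targets 7 were higher in Gr1lo and 3 lower, with a median of 2.41. The shares over all tested genes were 31.8% higher and 24.6% lower. Nme1, which encodes a nucleoside diphosphate kinase, averaged 9.99 ± 0.50 in Gr1lo and 5.90 ± 0.24 in Gr1hi (difference 4.09, adjusted p = 1.17e-06). Gfi1, a repressor needed for neutrophil development that the promyelocyte list also holds, differed by 3.05, and the MYC-responsive gene Cdca7 by 2.95. The acetyltransferase genes Crebbp (-0.91) and Ep300 (-0.64), whose products MYB recruits, and the myeloid factor gene Cebpb (-1.27) were lower. In the SLAM list, 0 of 6 tested genes were higher in Gr1lo (0 at an unadjusted p under 0.05) and 2 were lower, Cd84 (8.65 ± 0.68 in Gr1lo and 11.93 ± 0.32 in Gr1hi, difference -3.28) and Slamf9 (difference -0.34). Slamf9 was near the absent level in both groups, averaging 2.67 in Gr1lo and 3.01 in Gr1hi (limma adjusted p = 0.0465). Cd2, a receptor of CD48, was within the absent level on every array. Those 2 lower became 1 without Gr1lo replicate 1 or 2 or without any 1 of the Gr1hi arrays, and 6 under median centring.

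**Figure D4:**
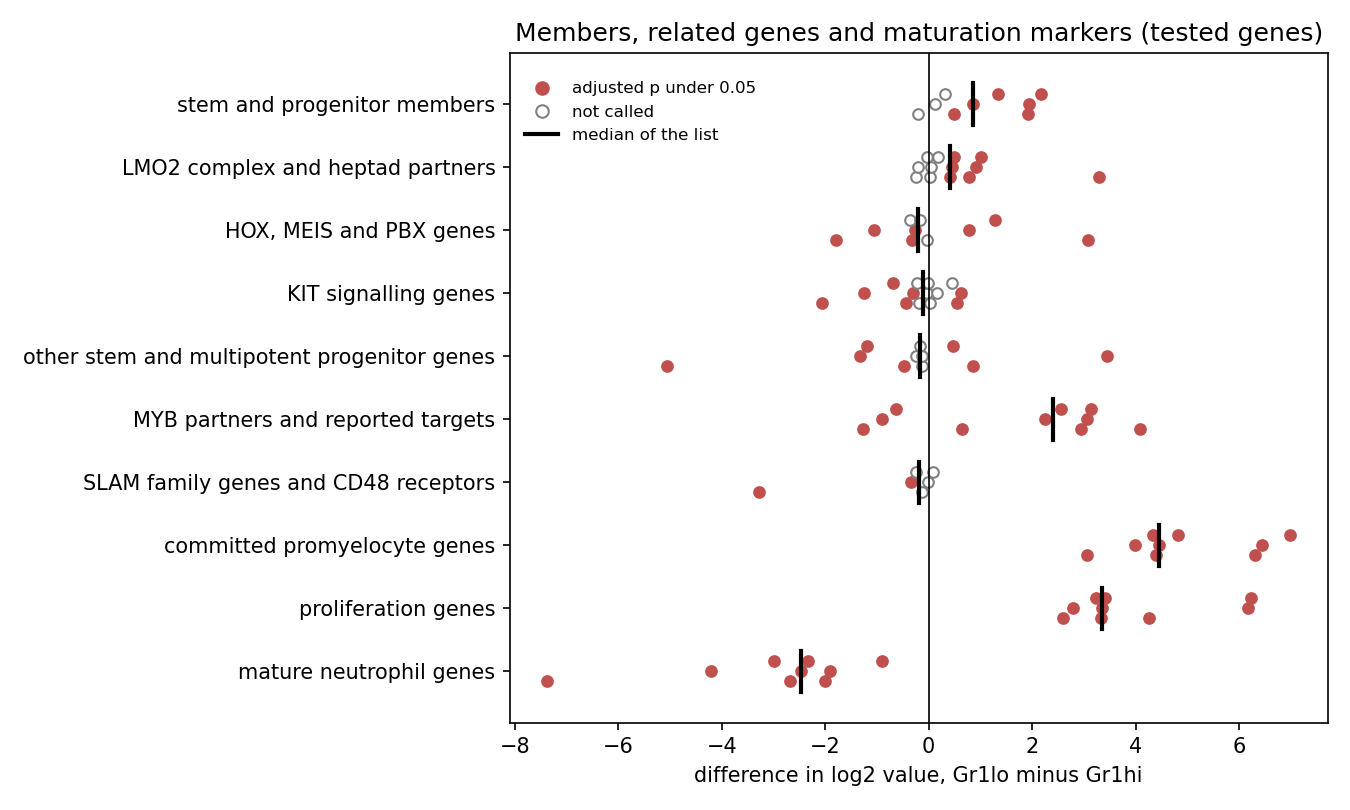
Difference in log2 value, Gr1lo minus Gr1hi (horizontal axis), of each tested gene in the member list, the 6 lists of related genes and 3 lists of maturation markers; filled points passed the test and bars are list medians. The members' median (0.86 over the 9 tested) lies between those of the LMO2 partners (0.41) and the MYB list (2.41), and the promyelocyte and proliferation genes lie farther to the right.

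The genes whose profile over the 6 arrays came closest to the 3 members with the largest differences were found by the root mean square distance after each gene's own mean was taken off. For Myb they were Trmt2b (0.058), Dnm1l (0.062) and Tmed3 (0.063), for Kit they were Ppa2 (0.084), Iars2 (0.10) and Setdb2 (0.14), and for Cd48 they were Psmd7 (0.16), Ecd (0.22) and Tnfrsf13b (0.26). Psmd7, a proteasome subunit gene, read 7.77, 8.76 and 8.02 in Gr1lo, against 5.73, 5.62 and 6.54 in Gr1hi, with the highest Gr1lo value on replicate 2 and the highest Gr1hi value on replicate 3, as Cd48 had.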

How the data were processed

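RNA of each sorted sample was labelled with an Affymetrix 3' IVT kit, as the labels' protocols state. The authors made the deposited log2 values with GCRMA, per the submitters' processing notes. Which version and settings they used is not given in the sources used here. Each array in the deposited table had 45101 probe sets. Array medians ran from 2.86 to 2.94. Probe sets were named through the platform annotation: 34945 had 1 symbol, 932 had several and were not used for names, and 9160 had none listed. All 10 members matched the RefSeq table of GRCm38.p6.

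For a gene with several probe sets the one of highest average signal was taken, and 12732 of 18193 genes passed the filter. Gr1lo was compared with Gr1hi with limma (version 3.58.1, run in R 4.3.3; lmFit and trended eBayes, 4 residual and 5.10 prior degrees of freedom), two-sided, with Benjamini-Hochberg adjustment. Every kept probe set was also fitted on its own. The fit was tested on simulated data. The text names every member; from each list of related genes the 3 called genes with the smallest p and each called gene that goes against most of its list; from each marker list genes among the 3 of highest mean; and the 3 genes nearest in profile to the 3 members with the largest differences. Genes within the absent level were named after their values were seen. So were Tcf3, Runx1, Cbfa2t3, Fli1, Tal1, Gata2, Eomes, Cpa3, Ikzf2, Hoxa7, Meis3, Ms4a1, Cd79a, Irf8 and Ccr2, and Kitl and Pik3cd in the KIT list. The members and lists were chosen with earlier results of these data known, so no p is adjusted over a list. Replicate numbers were checked for pairing by correlating deviations from group means (values in the closing section), and the fit used no block. Alternatives were other filters, probe set rules, scalings, variance models, array weights, a block, other thresholds and arrays left out. Summaries used Python 3.11.15, pandas 2.3.3 and matplotlib 3.10.9.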

Additional observations from a re-analysis of the deposited data

How the results depend on the processing

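Under the 19 alternatives run, Kit, Prom1, Cd48 and Myb stayed called higher in Gr1lo in all 19, with differences of 1.12 to 2.24 (Kit), 0.66 to 1.59 (Prom1), 1.51 to 2.58 (Cd48) and 1.24 to 2.17 (Myb). Lmo2 lost its call in 2 of 19 and Erg in 3 of 19, as the values beside them show; the cause was not tested. The members called higher numbered 4 to 7. Those called lower were 2 under median centring (Hoxa9, Meis1) and 1 with array weights (Meis1, -0.28). Under median centring Sox4 turned to -0.35, Erg to -0.19 and Hoxa9 to -0.54, with array weights Sox4 turned to -0.18, and leaving out 1 array moved it between -0.0045 (without Gr1hi replicate 2) and 0.72. Under control centring Meis1 turned to 0.042. No detection calls were used, so a low signal limits what can be said of Cd34, Hoxa9, Meis1 and Sox4.

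Over all genes 4051 were higher and 3126 lower in Gr1lo; counts were 6804 and 5947 over single probe sets (more features tested), 2316 and 8344 under median centring, 4849 and 1861 under control centring, and 2419 and 1355 in a test against a 1.5-fold change. Leaving out 1 array gave 3794 to 3925 and 2748 to 2966, with 6 members higher each time and 0 lower.

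Counts in the lists of related genes moved by over 1.5 times as follows. Under median centring, LMO2 partners had 2 higher and 6 lower, HOX genes 7 lower, KIT signalling genes 0 higher and 11 lower, other stem cell genes 1 higher and 8 lower, and SLAM genes 6 lower. Under control centring, HOX genes had 2 lower, KIT signalling genes 3 lower and SLAM genes 1 lower. In a test against a 1.5-fold change, LMO2 partners had 3 higher, HOX genes 2 lower, KIT signalling genes 0 higher and 2 lower, other stem cell genes 1 higher, the MYB list 1 lower and SLAM genes 1 lower. At a threshold of 0.01, HOX genes had 2 lower, KIT signalling genes 1 higher and SLAM genes 1 lower. A filter at the 60th percentile left KIT signalling genes 1 higher, other stem cell genes 2 lower and SLAM genes 1 lower. LMO2 partners had 1 lower when probe sets of a gene were averaged and 2 lower over single probe sets, and KIT signalling genes 1 higher when they were averaged. SLAM genes had 1 lower without the variance trend and 1 lower after repeated quantile normalization. HOX genes had 2 lower without both replicate 3 arrays. Leaving out 1 array gave 2 to 3 lower HOX genes, 1 to 2 higher KIT signalling genes and 1 to 2 lower SLAM genes.

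With the replicate number as a block 6 members were called higher and 0 lower, and 4020 genes were higher and 3036 lower; among the lists, HOX genes had 2 lower under the block and no other count moved by over 1.5 times. Deviations of same-numbered arrays correlated at 0.17, 0.0043 and 0.15, and those of differently numbered arrays at -0.19 to 0.044. Gr1lo replicates 1 and 3 correlated best with their own number, and Gr1lo replicate 2 did not. Xist was high only on replicate 3 of both groups, and Mcpt8, Cpa3, F13a1, Ly86, Irf8 and Ccr2 were highest there in each group. Whether the numbers pair the arrays was therefore not settled, and the main fit treated the arrays as unpaired.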
